A study of Homo sapiens with 4 samples.

Results

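MAP2 and other microtubule proteins best known from neurons were examined in A549, an established line of epithelial cells derived from a human lung tumour (carcinoma). A list of 9 genes was considered, and a gene was kept if the platform annotation gave its row exactly 1 symbol. That left 7 of the 22465 genes tested: the lattice-binding proteins MAP2, MAPT and MAP4, the large proteins MAP1A and MAP1B, the stathmin STMN3 and the beta-tubulin TUBB2A. The rows of STMN1 and TUBB3 each carry a second gene symbol, so no value is given for these genes. Where a gene had several rows, the row with the highest mean over all arrays was used. The list was thus chosen by measured values in part: the row by its mean level, and MAP2 by its rise on these same arrays, with results of these data known. The difference of MAP2 is therefore given as a description with no test.

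The arrays compare cells transduced with pLKO.1 lentivirus for a short hairpin against INSL4 (shINSL4, 2 arrays) with control cells (shCtl, 2 arrays). INSL4 encodes a placental peptide of the insulin and relaxin family. The series design describes the control as a scrambled hairpin and the sample labels as a vector control; whether control cells carried any hairpin is not settled. The 2 arrays of a group came from separately set up cultures, and the titles name a single hairpin. A shared transduction of the cultures within a group is neither stated nor denied by the sources. The p-values measure only the spread between these cultures.

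Microtubules are hollow polymers of alpha- and beta-tubulin that grow and shrink at their ends. MAP2, MAPT (tau) and MAP4 bind along the wall of the polymer through a related set of repeats and stabilise it. In neurons MAP2 is typical of dendrites and tau of axons, while MAP4 is the form of most other tissues. MAP1A and MAP1B are made as precursors that are cleaved into a heavy and a light chain; in the nervous system MAP1B is prominent in growing axons and MAP1A in mature neurons. Stathmins bind free tubulin dimers and favour disassembly. These proteins are regulated by phosphorylation, which an array does not measure.

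Sequences around a listed start are shown for 3 of these genes. These 3 genes give the range of the responses: the largest rise (MAP2), the largest fall (MAP1B) and no measurable difference (TUBB2A). Each is the RefSeq window (GRCh38.p14) of 300 bases around the first start listed for the gene, from 250 bases before the start to 50 after it, written 5′ to 3′ on the strand of the gene. Capitals mark a GC box (GGGCGG), a cyclic AMP response element core (TGACG) or a TATA box (TATAAA), on either strand; matches that touch or overlap run together.
MAP2, chr2:209661246-209661545, + strand: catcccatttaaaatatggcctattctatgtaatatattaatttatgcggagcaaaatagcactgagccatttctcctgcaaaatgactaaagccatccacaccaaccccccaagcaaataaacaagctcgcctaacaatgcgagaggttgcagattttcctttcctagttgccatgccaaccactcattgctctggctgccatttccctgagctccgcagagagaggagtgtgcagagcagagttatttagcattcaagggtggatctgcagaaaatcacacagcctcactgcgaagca
MAP1B, chr5:72107225-72107524, + strand: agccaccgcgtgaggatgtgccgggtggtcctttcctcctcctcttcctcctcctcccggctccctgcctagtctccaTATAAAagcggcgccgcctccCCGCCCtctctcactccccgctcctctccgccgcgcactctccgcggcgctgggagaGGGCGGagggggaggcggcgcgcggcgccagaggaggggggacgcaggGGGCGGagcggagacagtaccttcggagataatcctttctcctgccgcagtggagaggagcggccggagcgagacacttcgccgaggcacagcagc
TUBB2A, chr6:3157495-3157794, - strand: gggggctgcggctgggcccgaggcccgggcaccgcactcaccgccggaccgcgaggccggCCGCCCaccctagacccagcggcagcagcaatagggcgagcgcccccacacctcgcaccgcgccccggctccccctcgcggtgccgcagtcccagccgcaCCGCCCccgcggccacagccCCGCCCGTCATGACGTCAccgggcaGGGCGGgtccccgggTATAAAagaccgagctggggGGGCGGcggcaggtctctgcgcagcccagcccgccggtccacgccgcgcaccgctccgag
The MAP2 window has no capitals: it held 0 GC boxes, 0 response element cores and 0 TATA boxes, and its GC content was 45.3%. MAP2 has 3 windows in the table, and 0 of the 3 held any of these motifs. The printed one lies downstream of the other 2, which start at 209579082 and 209579357 and have GC contents of 40% and 52.3%. The MAP1B window held 3 GC boxes, 1 TATA box and 0 response element cores at a GC content of 70%. GC boxes and TATA boxes were found in 2 of its 2 windows, and the response element core in 1, the window not printed. The TUBB2A window held 5 GC boxes, 1 TATA box and 3 response element cores at a GC content of 79%. Overlapping matches were counted, and 2 of these 3 cores make up 1 full palindromic element, TGACGTCA. Of the 35116 windows in the table, 45% held a GC box, 11.5% a TATA box, 24.6% the response element core and 1.85% the full palindrome. These matches describe letters only. The array reports 1 value per gene here and does not tell which start was used.

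INSL4 itself checks the group labels. Its log2 level was 9.03 and 8.92 in the shCtl cultures and 7.26 and 7.22 in the shINSL4 cultures. It fell by 1.73 on the log2 scale (SE 0.0684; adjusted p = 0.000142, limma with Benjamini-Hochberg adjustment over all genes). All levels here are log2 values from RMA, the authors' summary of the probes of a gene, and a difference of 1 is a 2-fold change. Probes differ in how well they bind, so levels are compared between arrays for a gene and not between genes. In bulk cells, fewer cells with a transcript and less of it per cell cannot be told apart.

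MAP2 was higher in shINSL4. Its log2 level was 6.51 and 6.61 in the shCtl cultures and 7.93 and 7.98 in the shINSL4 cultures. The groups did not overlap, and the closest arrays of the 2 groups were 1.32 apart. The mean went from 6.56 ± 0.0682 to 7.96 ± 0.0376 (SD, n = 2 each), a log2 difference of 1.40 (SE 0.067) or 2.63-fold. By size of log2 difference MAP2 stood at rank 2 from the top of the 22465 genes. The same-numbered arrays of the groups, which were not taken as pairs, differed by 1.42 and 1.38. The row combines probes for the gene and does not separate the long dendritic forms of MAP2 from its shorter forms.

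MAPT and MAP4, the relatives of MAP2 that share its type of tubulin-binding repeat, did not rise with it. MAPT had a log2 level of 7.80 and 7.68 in shCtl and of 7.60 on both shINSL4 arrays. Its log2 difference was -0.14, with a 95% interval from -0.30 to 0.02, and did not pass (adjusted p = 0.192, limma with Benjamini-Hochberg adjustment). The annotation gives MAPT a second row, whose identifier places it on an alternative haplotype of the chromosome. That row read 7.45 and 7.38 in shCtl and 7.20 and 7.16 in shINSL4, a log2 difference of -0.23 (adjusted p = 0.0562, limma with Benjamini-Hochberg adjustment over all rows). Both rows were thus lower on every shINSL4 array without passing the threshold of 0.05.

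MAP4, the microtubule stabiliser of most non-neuronal tissues, had a log2 level of 8.63 and 8.65 in shCtl and of 8.51 and 8.50 in shINSL4. The arrays of a group lay close together, and the groups did not overlap. The log2 difference was -0.14 with a 95% interval from -0.28 to 0.01 and did not pass (adjusted p = 0.157, limma with Benjamini-Hochberg adjustment). For both MAPT and MAP4 the interval ends far below the difference of MAP2. MAP2 was chosen for its rise, so nothing is read from this contrast.

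**Figure D1:**
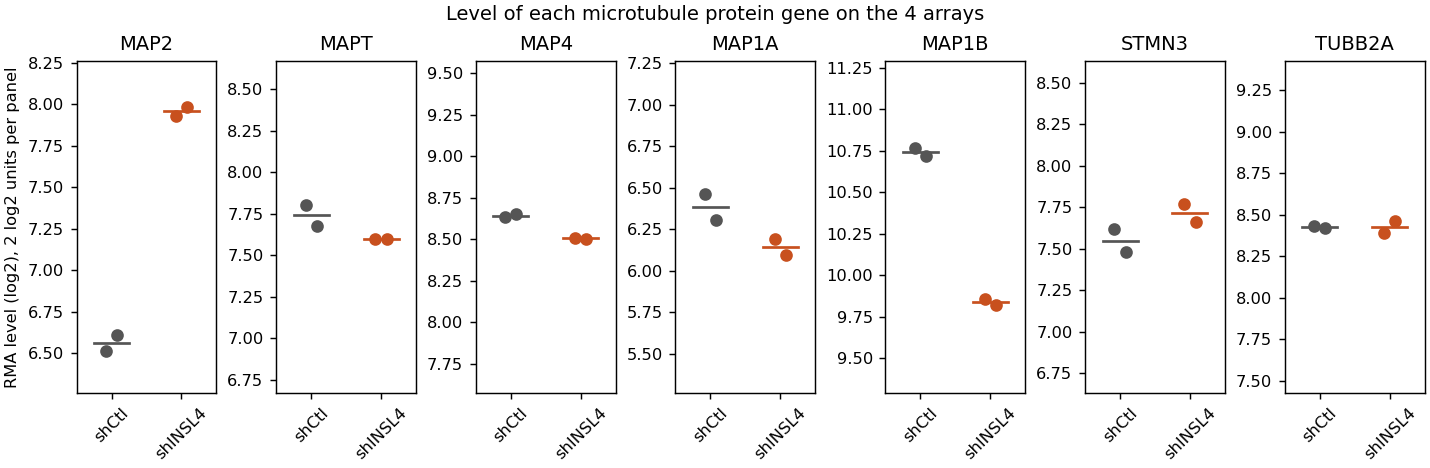
Log2 RMA level of the 7 genes on each array, with 1 panel per gene and the same span of 2 log2 units in every panel; points are arrays (2 per group) and lines are group means. MAP2 lies higher on both shINSL4 arrays (7.93 and 7.98 against 6.51 and 6.61), MAP1B lies lower, and the groups of TUBB2A overlap.

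MAP1B moved the other way and had the largest fall of the 7 genes. Its log2 level was 10.77 and 10.72 in the shCtl cultures and 9.86 and 9.82 in the shINSL4 cultures. The closest arrays of the 2 groups were 0.86 apart, far more than the arrays within a group. The mean went from 10.74 ± 0.0353 to 9.84 ± 0.0256 (SD, n = 2 each). MAP1B fell by 0.90 on the log2 scale (SE 0.0622), which is 1.87-fold lower (adjusted p = 0.000364, limma with Benjamini-Hochberg adjustment). Its differences between same-numbered arrays, which were not taken as pairs, were -0.91 and -0.90.

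MAP1A, the relative of MAP1B typical of mature neurons, had a log2 level of 6.46 and 6.30 in shCtl and of 6.19 and 6.10 in shINSL4. Both shINSL4 arrays were lower, but the closest arrays of the groups were only 0.111 apart. The log2 difference of -0.24 (95% interval -0.42 to -0.05) did not pass in the deposited values (adjusted p = 0.0888, limma with Benjamini-Hochberg adjustment). It passed after quantile normalization (adjusted p = 0.0265), after centring each array on its median (adjusted p = 0.0496) and after cyclic loess normalization (adjusted p = 0.0216). It also passed in the deposited values with the replicate number as a block (adjusted p = 0.0306, limma with Benjamini-Hochberg adjustment). The call for MAP1A therefore depends on the scaling and on the model.

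STMN3, a membrane-attached stathmin of the nervous system, had a log2 level of 7.62 and 7.48 in shCtl and of 7.77 and 7.66 in shINSL4. The groups were separated by 0.0419, less than the distance between the arrays within either group. Its log2 difference of 0.17 (95% interval -0.02 to 0.35) did not pass (adjusted p = 0.173, limma with Benjamini-Hochberg adjustment).

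TUBB2A, a beta-tubulin abundant in neurons, had a log2 level of 8.43 and 8.42 in shCtl and of 8.39 and 8.46 in shINSL4, so the groups overlapped. The log2 difference was 0.00 with a 95% interval from -0.15 to 0.15 (adjusted p = 0.997, limma with Benjamini-Hochberg adjustment). Its sign turned under centring or cyclic loess normalization. TUBB2B is a near-identical gene, and signal of the 2 genes may not be separable on the array. TUBB2B read 6.59 and 6.47 in shCtl and 6.47 and 6.34 in shINSL4, and its log2 difference of -0.12 did not pass either (adjusted p = 0.281, limma with Benjamini-Hochberg adjustment).

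Of the 6 genes other than MAP2, 1 was called lower (MAP1B) and 0 higher at an adjusted p under 0.05 (limma; 2 lower and 0 higher before adjustment, at p under 0.05). Of all genes tested, 6.41% were called higher and 9.42% lower, and nothing is read from a count over so few genes. The groups did not overlap for 6 of the 7 genes, against 68.9% of all genes tested. MAP2 is among these 6, and its separation was fixed when it was chosen for its rise. The median log2 difference of the 7, MAP2 included, was -0.14, and that of all genes was 0.08.

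**Figure D2:**
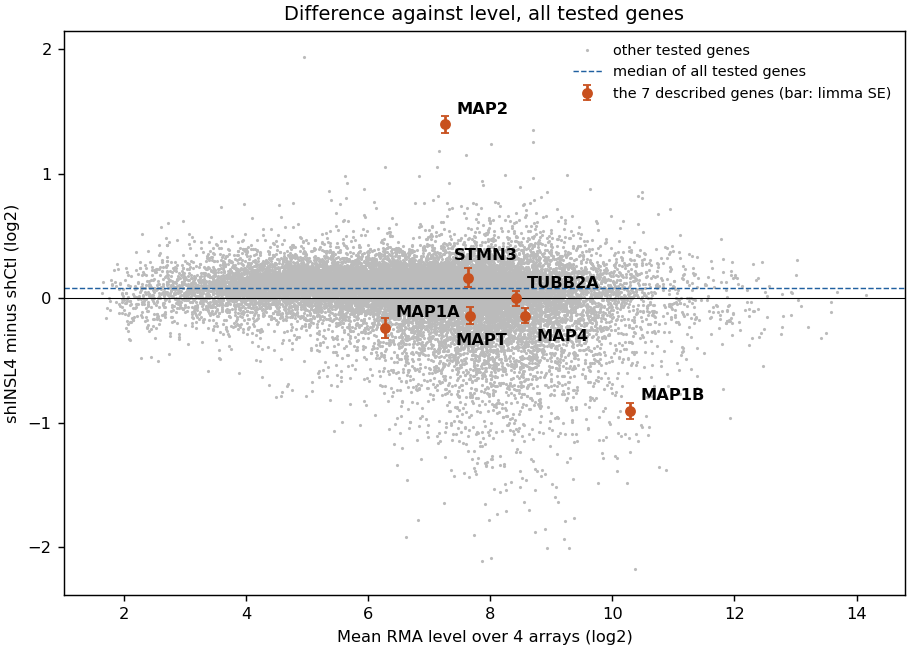
Log2 difference (shINSL4 minus shCtl) against mean log2 level for all 22465 tested genes (grey) and the 7 described genes (orange, bars are limma standard errors); the dashed line is the median of all genes at 0.08. MAP2 at 1.40 lies near the upper edge of the cloud and MAP1B at -0.90 in its lower part, while the other 5 lie between -0.24 and 0.17.

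The genes whose pattern over the 4 arrays was nearest to that of MAP2 were found by the Euclidean distance of log2 deviations from the shCtl mean. The nearest was ABCA12, a lipid transporter gene, at a distance of 0.0876 and levels of 7.97 and 8.06 in shCtl and 9.38 and 9.35 in shINSL4. SULF2, which trims sulfate groups from heparan sulfate, followed at 0.208, and the Polycomb-group gene SCML2 at 0.293. The stress-induced gene SESN1 came next at 0.314 and FBXW10, an F-box protein gene, at 0.355. Since 4 arrays in 2 groups carry little more than the group difference, this likeness mostly reflects a rise of similar size. None of these 5 is a microtubule protein gene.

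The wider microtubule machinery was described with 7 lists of other genes, of which 134 of 142 symbols were measured. Of these, 9 were higher and 23 lower, or 23.9% called against 15.8% of all genes tested, and their median log2 difference was 0.02 against 0.08 for all genes. Levels differed as well: 96 of the 134 lay above the median level, against 11232 of all 22465 genes. The shares called were not matched for level, so nothing is read from their difference. Against 32 called with all arrays, fewer of the list genes were called without either shINSL4 replicate, and the number called in the whole table dropped there too. Those fits gave each of the 7 described genes the same standard error of 0.131. A call lost there thus does not show that a gene depends on that array. The log2 differences of the 134 genes ran from -0.79 to 0.60. Beside the counts per list that follow, 6.41% of all genes tested were called higher and 9.42% lower.

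Among 17 other tubulin genes, 4 fell and 0 rose, with a median of -0.03 (limma; 1 higher and 4 lower before adjustment, at p under 0.05). Gamma-tubulin, which nucleates new microtubules at the centrosome, gave the largest falls. TUBG1 read 10.98 and 10.99 in shCtl and 10.14 and 10.25 in shINSL4, and fell by 0.79 (adjusted p = 0.000788, limma with Benjamini-Hochberg adjustment). Its near-identical copy TUBG2, whose signal may not be separable from that of TUBG1, fell by 0.69. The alpha-tubulin gene TUBA4A fell by 0.52, from levels of 9.95 ± 0.0120 to 9.43 ± 0.0141 (SD, n = 2 each). The remaining 13 tubulin genes did not pass.

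Among 30 other lattice-binding and neuronal microtubule proteins, 7 fell and 1 rose, with a median of 0.01. EML1, a protein of the microtubule wall, fell by 0.76, its relative EML4 by 0.57 and MTUS1 by 0.47 on the log2 scale. CAMSAP1, which binds minus ends, rose by 0.23 (adjusted p = 0.0479, limma with Benjamini-Hochberg adjustment). That call was lost after centring (limma adjusted p = 0.103), after cyclic loess (0.0684) and with any single array left out. The doublecortin gene DCX, chosen here as a neuronal counterpart after its value was seen, differed by 0.12 and did not pass (adjusted p = 0.377, limma with Benjamini-Hochberg adjustment). Of the 10 other stathmins and severing enzymes, 1 rose and 1 fell. The katanin-like genes KATNAL2 and KATNAL1 were these, with log2 differences of 0.29 and -0.58. The call of KATNAL2 was lost after cyclic loess (limma adjusted p = 0.0755) and without shCtl replicate 2 or either shINSL4 array.

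Plus-end binding proteins, which ride on growing microtubule tips, went in both directions: 3 of 18 rose and 6 fell, with a median of 0.00. The related navigator genes split. NAV3 rose by 0.60, from 6.51 and 6.57 in shCtl to 7.16 and 7.12 in shINSL4, while NAV1 and NAV2 fell by 0.45 and 0.44. The linker gene CLIP1 rose by 0.42 and the cytolinker gene DST by 0.27, and the end-binding gene MAPRE2 fell by 0.45. Adjusted p-values of these 6 genes ran from 0.00168 for NAV3 to 0.0317 for DST (limma with Benjamini-Hochberg adjustment). The call of DST was lost after centring (limma adjusted p = 0.0706) and without either shINSL4 array.

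Among 20 kinases and phosphatases that act on microtubule-associated proteins, 1 rose and 1 fell, with a median of 0.07. MARK4, a kinase that releases MAP2, MAP4 and tau from microtubules by phosphorylating their repeats, rose by 0.25 (adjusted p = 0.0411), and DYRK1A, which phosphorylates tau, fell by 0.55 (adjusted p = 0.0024, both limma with Benjamini-Hochberg adjustment). The call of MARK4 was lost after centring (limma adjusted p = 0.0736), after cyclic loess (0.052) and without shCtl replicate 2 or either shINSL4 array. With an intensity trend or quantile normalization, 3 of these 20 kinases and phosphatases were called higher, beside 1983 and 1532 of all 22465 genes tested. Among 27 tubulin-modifying enzymes, 2 fell and 0 rose, with a median of 0.07 (limma; 6 higher and 4 lower before adjustment, at p under 0.05). The 2 were TTLL12, at -0.35, and the polyglutamylase subunit gene TPGS2, at -0.25 on the log2 scale. TTLL12 lost its call without shINSL4 replicate 2. TPGS2 lost it after quantile normalization (limma adjusted p = 0.177) or cyclic loess (0.0845) and with all rows tested (0.051). It was also lost without shCtl replicate 1 or either shINSL4 array. With the replicate block, 4 of these 27 enzymes were called higher and 3 lower, beside 2996 higher and 2605 lower of all 22465 genes tested.

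Of the 12 tubulin folding cofactors and prefoldin subunits, 3 rose and 2 fell. The cofactor genes TBCC and TBCEL rose by 0.42 and 0.30 and the prefoldin subunit gene PFDN2 by 0.30. ARL2, a small GTPase that works with the cofactors, fell by 0.58 and TBCD by 0.29. TBCC lost its call without shCtl replicate 2, and TBCEL lost it after centring (limma adjusted p = 0.0757) or cyclic loess (0.0798). Without either shINSL4 array, TBCEL, PFDN2 and TBCD were not called, and PFDN2 was not called without shCtl replicate 2 either.

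**Figure D3:**
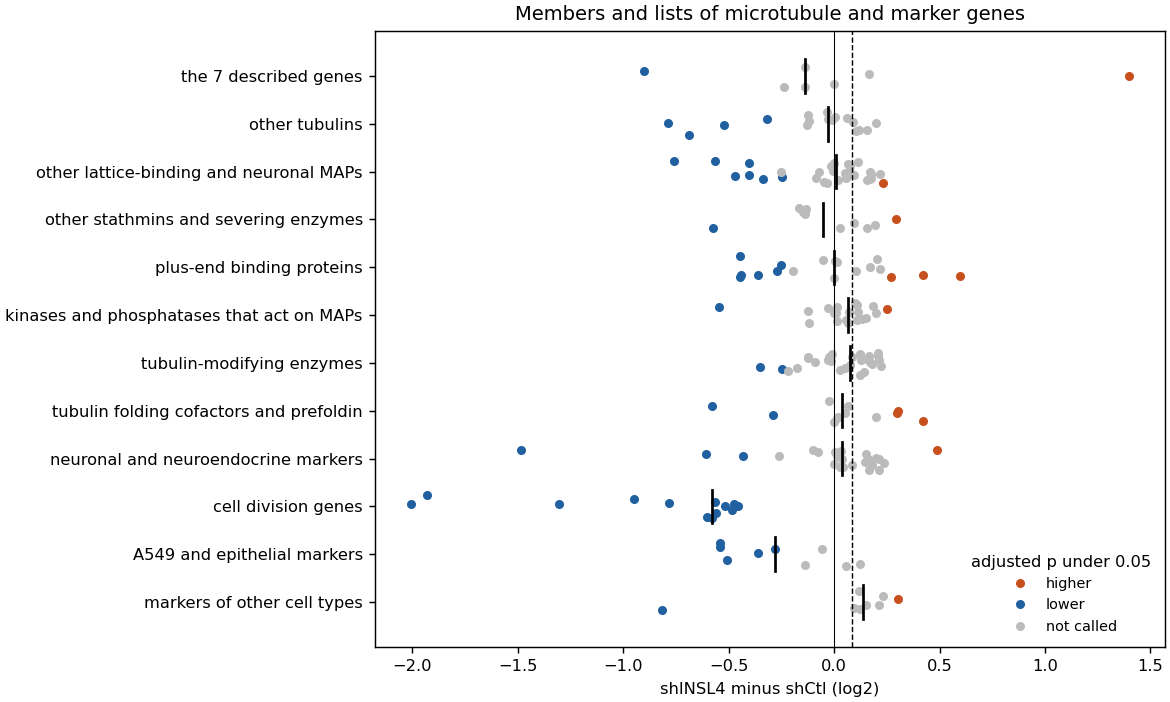
Log2 difference (shINSL4 minus shCtl) of each measured gene in the 7 described genes and in each list; points are genes coloured by call at an adjusted p under 0.05, black bars are list medians and the dashed line is the median of all genes at 0.08. The 7 microtubule lists run from -0.79 to 0.60, and the 13 cell division genes lie below 0. MAP2, chosen for its rise, is at 1.40, and its colour is not to be read as a test.

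General markers of neurons and neuroendocrine cells were called about as often as genes at large. Of 24 measured, 1 rose and 3 fell, or 16.7% against 15.8% of all genes tested, with a median of 0.04 against 0.08 for all genes. The number called higher was 3 with an intensity trend or quantile normalization, where 1983 and 1532 of all 22465 genes were called higher. It was 4 with the replicate block, where 2996 genes were. Without the dimmest genes it was also 4, beside 2223 genes of the table, and 8 of the 24 markers were among those left out. The neurofilament gene INA fell by 1.48 on the log2 scale, which is 2.80-fold, from 10.96 and 11.01 in shCtl to 9.45 and 9.55 in shINSL4 (adjusted p = 0.000154, limma with Benjamini-Hochberg adjustment). NEFL, another neurofilament gene, rose by 0.49, from 8.91 and 9.03 to 9.44 and 9.48 (adjusted p = 0.00526, limma with Benjamini-Hochberg adjustment). The neuronal enolase gene ENO2 fell by 0.61 and the vesicle fusion gene SNAP25 by 0.43. SNAP25 was not called without shINSL4 replicate 2. The array sets no limit of detection for these values, so which of these markers the cells express was not tested.

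Other gene groups moved beside these results. For the counts that follow, 15.8% of all genes tested were called, 6.41% higher and 9.42% lower. Of 13 measured cell division genes, 13 fell and 0 rose (limma; 0 higher before adjustment, at p under 0.05), with a median of -0.58 and the largest fall in MKI67 (-2.00). Their summed linear signal was 8948 to 9401 on the shCtl arrays and 4976 to 4990 on the shINSL4 arrays. Of 9 markers of A549 and epithelial cells, 5 fell and 0 rose (limma; 5 lower and 0 higher before adjustment, at p under 0.05). KRT18 fell by 0.54, KRT7 fell by 0.54 and CDH1 fell by 0.51, and the group means of KRT7, KRT8 and KRT18 were at 10.53 or more. KRT8, with a fall of 0.28, and EPCAM, with a fall of 0.36, were also called lower. In the means of shCtl and shINSL4, EPCAM read 6.93 and 6.57. The markers not called were KRT19 (6.73 and 6.85), MUC1 (6.93 and 6.99), AKR1B10 (12.86 and 12.72) and AKR1C1 (10.60 and 10.54). Of 8 measured markers of blood, endothelial and connective tissue cells, 1 rose and 1 fell. The matrix gene DCN rose by 0.30, from a mean of 3.98 to one of 4.28, and the lysosomal gene CD68 fell by 0.81. The call of DCN was lost under 8 of 13 alternatives. The summed signal of these 8 was 1447 to 1549 in shCtl and 1093 to 1094 in shINSL4. CD68 carried that fall. Differences above 0 were seen in 15466 of all 22465 genes tested and in all of the other 7 markers. These 7 summed to 414.4 to 468.8 in shCtl and 485.7 to 500.3 in shINSL4. Among them the leukocyte marker PTPRC read 3.75 and 3.87 in the means of the groups. The part of these groups of genes in the results for MAP2 and MAP1B was not tested.

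The scale of the arrays matters for small differences. Of the genes called, 40.5% were higher in the deposited values, against 25.6% after centring, 27.5% after cyclic loess and 41.6% after quantile normalization. The share was 53.5% with the replicate block and 55.2% without shCtl replicate 1. MAP2 differed by 1.33 to 1.45 and MAP1B by -0.95 to -0.83 on the log2 scale over 14 alternative settings each, and neither changed direction.

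**Figure D4:**
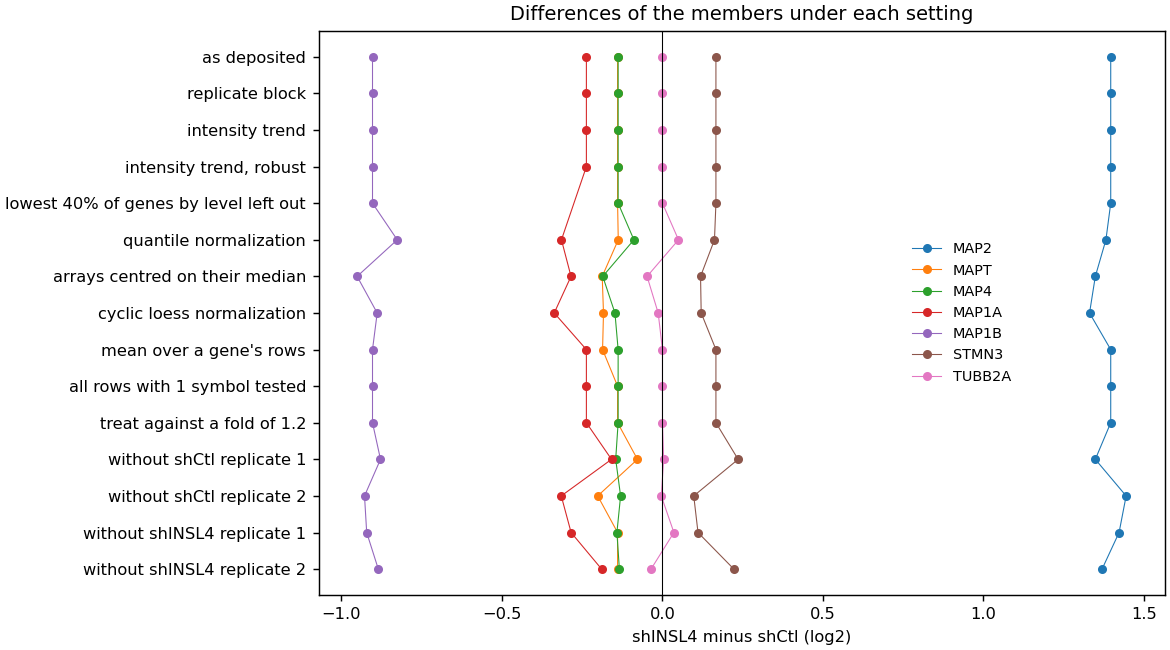
Log2 difference (shINSL4 minus shCtl) of the 7 genes in the deposited values and under each alternative; each line joins the values of 1 gene. MAP2 stays between 1.33 and 1.45 and MAP1B between -0.95 and -0.83, MAP1A has no value where the dimmest genes were left out, and TUBB2A crosses 0.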

How the data were processed

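Gene expression was measured on 4 Affymetrix arrays, 2 per group. The authors deposited log2 levels (the scale follows from their range), and the submitters' processing notes name RMA and Affymetrix Expression Console. Tool versions and the genome build: not given in the sources used here. The table has 67528 rows; a single gene symbol was annotated for 23781, several for 1543 and none for 42204. Taking the row with the highest mean for the 479 genes with several left 22465 genes. No filter was applied. Array medians ran from 6.91 to 6.98.

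The two-sided test was limma 3.58.1 in R 4.3.3, with lmFit on the group and eBayes, and Benjamini-Hochberg adjustment over all genes at 0.05; the 95% intervals use limma's moderated degrees of freedom. The fit was tested on simulated data. Precision is limited by the number of arrays; the standard error had a median of 0.0693. Genes named were INSL4, the 7 members, up to 3 genes per list and direction with the smallest p among those called, and the 5 nearest to MAP2; genes chosen otherwise are said to be, apart from those named as cell markers or near-identical copies, whose values were also known. The members and lists were chosen with earlier results of these data known. Alternatives covered the replicate block, the variance model, a level filter, normalization, the row per gene, treat and leaving out each array. Promoter sequences are from RefSeq and were found for each of the 7 genes except MAPT. Motif matches were counted on both strands.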

Additional observations from a re-analysis of the deposited data

How the results depend on the processing

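MAP2 and MAP1B kept their direction under all 14 alternatives, and MAP1B kept its call in each. MAP2 differed by 1.33 after cyclic loess normalization and by 1.35 to 1.45 with single arrays left out; MAP1B then differed by -0.93 to -0.88. The number of the 7 genes called lower was 2 rather than 1 with the replicate number as a block, with quantile normalization, with centring and with cyclic loess, in each case through MAP1A. TUBB2A turned sign with centring (-0.0476) and cyclic loess (-0.0130) and with single arrays left out (-0.0353 to 0.0360, below 0 without shCtl replicate 2 or shINSL4 replicate 2); it was called in none of these. Of 97 differences of the 7 genes under an alternative, 89 kept direction and call (direction only for MAP2), and 0 lost a call.

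Same-numbered arrays share a number and a letter code in the titles, which do not say what either marks, so the number was not taken as a pairing. The deviations of same-numbered arrays from their group means correlated at 0.232 across genes, with only 2 pairs. With the replicate block, 5601 genes were called in the whole table against 3557, and MAP1A passed (adjusted p = 0.0306, limma with Benjamini-Hochberg adjustment). The block changed no other call among the 7 genes. With treat against a fold of 1.2, which asks for a larger change by construction, 786 genes of the table and 6 genes of the 7 microtubule lists were called. With single arrays left out, 2295 to 5429 genes of the table and 18 to 36 genes of the lists were called; the highest count came without shCtl replicate 1 and the lowest without shINSL4 replicate 1. The lone array of such a group is assumed to vary like the other group. Without either shINSL4 array, each of the 7 genes was given the same standard error of 0.131, whatever its own spread. These counts, and calls lost with an array left out, are therefore a description. Of 308 counts per list and direction under an alternative, 78 moved by over 1.5 times or changed to or from 0. Other causes were not tested.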
